A study of Homo sapiens with 18 samples.

Results

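Replication-dependent histone genes were examined in RNA from BJ cells, an established human skin fibroblast line, in which the long noncoding RNA PURPL was lowered or raised. The members are all protein-coding genes of the count tables whose symbols name them as H1-1 to H1-6 or as numbered genes of the H2AC, H2BC, H3C or H4C sets. They number 66 of the 61544 genes listed: 6 linker histone H1 genes, 16 H2A, 17 H2B, 13 H3 and 14 H4 genes. The 18 libraries fall into 6 groups of 3 each. In the knockdown table, CRISPRi lines with either of 2 guides against PURPL (sgRNA-PURPL#1 and sgRNA-PURPL#2, called guide 1 and guide 2) stand beside the control line sgCtrl. In the overexpression table, the lines PURPL#1-OE and PURPL#2-OE (OE 1 and OE 2) stand beside the control line Ctrl. All 6 groups are the same cell line, and poly(A)-bearing RNA was selected before sequencing. The labels give neither the vectors nor the number of clones behind each line, nor whether the 3 libraries of a group came from separate cultures, so the p-values measure the spread between these libraries, which may be technical.

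Replication-dependent histone genes make the bulk of the H1, H2A, H2B, H3 and H4 proteins that package newly copied DNA, and their transcripts accumulate while DNA is replicated. Their main mRNAs end in a short stem-loop that is bound by SLBP and carry no poly(A) tail, unlike nearly every other mRNA. Some of these genes also make longer transcripts that are polyadenylated at a signal beyond the stem-loop, and such transcripts have been described in differentiated and arrested cells. Selection on poly(A) keeps the second kind and mostly loses the first, so the counts below are not a measure of total histone mRNA.

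The stem-loops are shown because they mark where the usual transcript stops. Some annotated polyadenylated transcripts run on through the stem-loop and others lack it. The H2BC4 transcript that ends in a poly(A) signal has 2 exons and no stem-loop motif. The 16 bases of the stem-loop are in capitals with 5 bases on either side, as DNA, 5′ to 3′ on the gene's strand, from GENCODE release 29 transcripts on GRCh38, matched to the tables by Ensembl gene ID. The capitals of H2AC6 lie at chr6:26124669-26124684 (plus strand), of H2BC4 at chr6:26123472-26123487 (minus), of H2BC21 at chr1:149886188-149886203 (minus), of H4C8 at chr6:26285131-26285146 (minus), of H3C6 at chr6:26225596-26225611 (plus) and of H2AC11 at chr6:27133515-27133530 (plus).
H2AC6: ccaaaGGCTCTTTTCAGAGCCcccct
H2BC4: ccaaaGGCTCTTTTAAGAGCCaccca
H2BC21: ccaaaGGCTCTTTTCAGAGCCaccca
H4C8: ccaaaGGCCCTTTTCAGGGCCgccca
H3C6: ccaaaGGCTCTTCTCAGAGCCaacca
H2AC11: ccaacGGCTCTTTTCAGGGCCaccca
Of the 66 members, 62 had a transcript in this set, and a stem-loop motif was found in the transcripts of 26, in 6 forms. Many of the other transcripts stop short of the gene's end, such as H2BC12 (381 bases, span 495 bp) and H1-2 (642 bases, span 731 bp). A motif past their end could not be found, so these genes are not shown to lack a stem-loop. H2AC6 and H2BC21 share the commonest form with 11 other members (13 in all), H2BC4 shares its form with 3 others, H2BC5 among them, and the forms of H3C6 and H2AC11 occur in them alone. In 11 of the members with enough counts to test, the gene span, introns included, ran more than 100 bp past the stem-loop.

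The regions upstream of 3 genes are shown for 3 members described below. The first region is shared by H2AC6 and H2BC4, which are transcribed away from each other with starts 218 bp apart, H2BC21 is a gene of the chromosome 1 cluster called in 3 of the 4 comparisons with a control, and H4C8 is the member called in opposite directions in the overexpression lines. Each line is the 250 bases before the start site, 5′ to 3′ on the gene's strand, from RefSeq on GRCh38.p14. Capitals mark the TATA box letters TATAAA, the CCAAT box letters CCAAT and the octamer letters ATTTGCAT, on either strand; none of these contains another. The windows are chr6:26123922-26124171 (H2AC6, plus strand), chr1:149886683-149886932 (H2BC21, minus) and chr6:26285535-26285784 (H4C8, minus).
H2AC6: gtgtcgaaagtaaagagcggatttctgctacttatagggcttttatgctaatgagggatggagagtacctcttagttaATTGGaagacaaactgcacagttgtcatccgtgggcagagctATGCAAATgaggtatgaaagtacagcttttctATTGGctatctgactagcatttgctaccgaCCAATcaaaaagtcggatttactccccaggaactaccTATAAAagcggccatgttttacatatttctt
H2BC21: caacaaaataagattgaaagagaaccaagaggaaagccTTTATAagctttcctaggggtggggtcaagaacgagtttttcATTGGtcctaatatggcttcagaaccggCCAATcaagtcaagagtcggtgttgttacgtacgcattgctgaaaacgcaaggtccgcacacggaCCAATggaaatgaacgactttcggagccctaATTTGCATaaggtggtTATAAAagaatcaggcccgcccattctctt
H4C8: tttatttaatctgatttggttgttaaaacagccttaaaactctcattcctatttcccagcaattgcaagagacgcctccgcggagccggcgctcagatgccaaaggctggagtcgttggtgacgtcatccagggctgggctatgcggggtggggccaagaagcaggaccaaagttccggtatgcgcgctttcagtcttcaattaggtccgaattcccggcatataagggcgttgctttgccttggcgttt
Windows of 300 bases (250 before the start to 50 after) were found for 61 members, 65 windows in all. The octamer letters were in 41.5% of the members' windows and in 1.77% of 35116 RefSeq windows. They were in 73.3% of H2A and 78.9% of H2B windows, in 7.69% of H3 windows and in none of 6 H1 and 12 H4 windows. CCAAT was in 86.2% of members' windows against 34.6% of all, and TATAAA in 67.7% against 11.5%. The H4C8 window holds none of these 3 sets of letters.

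Counts were found for 58 of the 66 genes, and 8 genes had none in any of the 18 libraries. Some of these 8 share sequence or territory with other genes. For H3C14 and H3C15, every 100-base window of the transcripts occurs in another member too. H3C4 and H2AC7 lie wholly within ENSG00000282988 on their strand. H2AC17 overlaps H3C12 on its strand and shares 84.0% of its windows. For these genes a lack of counts does not show a lack of transcripts. H2AC1, H2BC1 and H4C7 had no such overlap or sharing. Over the knockdown libraries, 55 genes had at least 1 count and 39 had 10 or more over the 9 libraries. Over the overexpression libraries, 56 had at least 1 count and 34 had 10 or more. The members held 35011 counts in the first table and 32488 in the second. A filter on low counts left 16 members to test for knockdown and 19 for overexpression, the same 16 among them; H2AC15, H2BC6 and H2BC9 were tested in the overexpression table alone. H2BC9 passed the filter through the OE 2 libraries alone, so it was kept because it is high there, and its values are given as a description. The 19 are 1 H1, 4 H2A, 10 H2B, 2 H3 and 2 H4 genes.

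The counts were concentrated in a few genes. A list of 7 members for which polyadenylated transcripts have been described (H1-2, H2AC6, H2BC4, H2BC5, H2BC12, H2BC21 and H4C8) held 90.9% of the members' counts for knockdown and 87.3% for overexpression. Its genes held ranks 1 to 7 by count for knockdown. The list was chosen with earlier results of these data known, so the shares only describe it. H2AC6, an H2A gene, held 25.2% of the knockdown counts and 46.5% of the overexpression counts. H1-2, a linker histone gene, held 19.3% and 6.45%. H2BC12, an H2B gene, held 15.6% and 5.90%. These shares are of counts, not scaled for length. Of the 47 members not tested, the largest totals over 18 libraries were 92 counts for H4C15, 68 for H4C3, 66 for H2AC13, 65 for H3C12, 55 for H4C12, 48 for H3C3, 41 for H2AC19, 40 for H3C8 and 34 each for H1-4 and H3C2. The remaining 37 had at most 33 counts each.

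All members lie in 2 clusters, 55 on chromosome 6 between positions 25726063 and 27893891 and 11 on chromosome 1 between 149782689 and 149887965 (GRCh38). Tested members mostly had long gene spans: 12 of 14 members with a span over 1000 bp were tested, against 7 of 52 with a shorter span. A poly(A) signal (AATAAA or ATTAAA in the last 40 bases of a transcript) was found for 14 of 19 tested members and for 6 of the 43 untested members with a transcript. Many annotated transcripts of untested members are shorter than the gene span, such as H4C1 (312 bases, span 402 bp) and H2BC3 (381 bases, span 487 bp). A signal beyond their end could not be found, so these shares are not comparable. The span runs from gene start to gene end, introns included. For H2AC6 it was 14972 bp, while the longest transcript had 1668 bases. A long span is thus not a measure of the sequence counted. The span, the presence of polyadenylated transcripts and the completeness of the annotated transcripts cannot be told apart here. H2BC12 and H1-2 were the exceptions among abundant genes: their spans were 495 and 731 bp, and no poly(A) signal was found at the end of their annotated transcripts. Those transcripts have 381 and 642 bases, so sequence further along the span was outside the search.

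**Figure D1:**
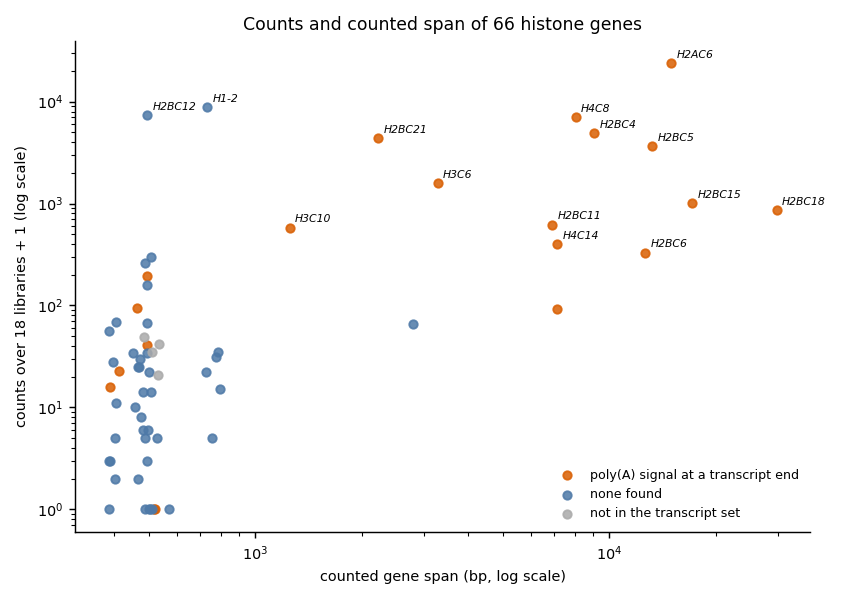
Counts over the 18 libraries plus 1 (vertical, log scale) against the gene span in bp (horizontal, log scale) for the 66 histone genes, 1 point per gene, coloured by whether a transcript ends in a poly(A) signal. The span, labelled as counted on the axis, runs from gene start to gene end with introns. Most genes with a span over 1000 bp lie in the upper right, H2AC6 being the highest at 23933 counts, while H4C15 (92 counts) and H3C12 (65 counts) lie lower. H2BC12 (7388 counts) and H1-2 (8845 counts) are the short genes with many counts.

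Some members share sequence or territory with other genes. Of 100-base windows along its transcripts, 94.9% of those of H4C14 occur in another member as well, so its counts are uncertain; the share was 2.63% for H2BC21, 1.74% for H2BC18 and under these values for the other tested genes. The span of H2BC18 (29685 bp) overlaps the gene ENSG00000233030 on its strand and FCGR1A on the other, and that of H2BC5 (13228 bp) overlaps the pseudogene LARP1P1 on its strand. H2BC5 and H2BC6 both overlap ENSG00000283064 on the other strand. Whether the authors counted by strand is not given in the sources used here, so reads of these overlapping genes cannot be told apart from the histones' own.

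Library totals were 11444513 to 12896040 counts for knockdown and 18858976 to 27985649 for overexpression. PURPL followed the labels. Its level, in TMM-scaled CPM (counts scaled to the library total; gene spans were not used), was 71.1, 77.0 and 94.3 in sgCtrl, 14.1 to 17.9 with guide 1 and 17.9 to 21.5 with guide 2. It was 59.2 to 67.3 CPM in Ctrl, 166 to 178 in OE 1 and 114 to 129 in OE 2. The log2 fold change of PURPL was -2.36 ± 0.10 (SE) with guide 1, -2.06 ± 0.10 with guide 2, 1.43 ± 0.06 in OE 1 and 0.93 ± 0.06 in OE 2. The groups did not overlap in any of these 4 comparisons. Of 10 fibroblast markers, all had counts in every group. Markers of other cell types were low: the summed level of 4 endothelial markers was at most 5.18 CPM in any library, of 4 immune markers 1.66, of 4 melanocyte markers 1.43 and of 6 keratinocyte markers 14. KRT1 had no count in any group, KRT5 and KRT14 had none in 5 of 6, and CD3E had none in 5 of 6. CDH5 and MLANA had none in 4 groups each. The keratinocyte sum was mostly KRT10 (6.24 to 12.8 CPM a library) and was above the level of several histone genes called below. Some of these markers changed: VWF, of endothelial cells, rose with guide 1 (1.12, adjusted p = 0.0333), PECAM1, also endothelial, fell in OE 1 (-1.63, adjusted p = 0.0200), and CDH1, of keratinocytes, rose with guide 2 (1.73, adjusted p = 0.00161) and in OE 1 (1.62, adjusted p = 0.0310). Their part in the histone changes was not tested.

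The first question was whether lowering PURPL changed these genes. With guide 1, 6 of the 16 tested histone genes rose and none fell, and with guide 2, 4 rose and none fell, at an adjusted p under 0.05. H2AC6, H2BC4, H2BC18 and H4C8 rose with both guides, and H1-2 and H2BC21 rose with guide 1. Over all 13923 genes tested, 11.6% were called higher and 12.9% lower with guide 1, and 11.9% higher and 12.4% lower with guide 2. The median log2 fold change of the 16 genes was 0.37 with guide 1 and 0.13 with guide 2, beside medians of 0.0037 and -0.0014 over all genes. Both guides are compared with the same 3 sgCtrl libraries, so their results are not independent.

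H2AC6 and H2BC4, the divergent H2A and H2B pair shown above, had the smallest p-values. H2AC6 (chr6:26124145-26139116, plus strand) was at 65.1, 58.1 and 53.9 CPM in sgCtrl, at 93.2, 100.2 and 94.3 with guide 1 and at 85, 82.2 and 84.3 with guide 2. Every library of either guide lay above every sgCtrl library. On the log2 scale it differed by 0.70 ± 0.07 with guide 1 (adjusted p = 2.34e-09) and 0.51 ± 0.07 with guide 2 (adjusted p = 1.35e-06). H2BC4 (chr6:26114873-26123926, minus strand) was at 23.9, 25.9 and 23.0 CPM in sgCtrl, at 50.1, 46.2 and 41.3 with guide 1 and at 38.7, 34.4 and 40.7 with guide 2. Here too neither guide's libraries overlapped those of sgCtrl. This was a log2 fold change of 0.92 ± 0.09 with guide 1 (adjusted p = 1.24e-09) and 0.64 ± 0.09 with guide 2 (adjusted p = 1.59e-06).

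H2BC18 (chr1:149782689-149812373, minus strand), an H2B gene with a low level, was at 1.56, 2.26 and 2.27 CPM in sgCtrl, from 18 to 29 counts a library. It was at 3.81, 3.88 and 4.36 with guide 1 and at 3.3, 3.61 and 4.07 with guide 2, above sgCtrl in every library. Its log2 fold change was 0.97 ± 0.22 with guide 1 (adjusted p = 0.00115) and 0.84 ± 0.22 with guide 2 (adjusted p = 0.00537). H2BC21 (chr1:149884459-149886682, minus strand), the other tested H2B gene of the chromosome 1 cluster, was at 12.8, 12.6 and 15.9 CPM in sgCtrl, 19.5, 21.8 and 20.6 with guide 1 and 17.8, 15.7 and 16.1 with guide 2. Its groups did not overlap for guide 1 and did for guide 2. The log2 change was 0.58 ± 0.11 with guide 1 (adjusted p = 0.000100) and 0.27 ± 0.11 with guide 2, which did not pass (adjusted p = 0.0774).

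H4C8 (chr6:26277609-26285638, minus strand), an H4 gene, was at 23.2, 16.3 and 25.1 CPM in sgCtrl, 31.0, 32.4 and 31.5 with guide 1 and 26.8, 25.7 and 27.5 with guide 2. The guide libraries lay above all 3 sgCtrl libraries, of which replicate 2 was the lowest. On the log2 scale it differed by 0.56 ± 0.11 with guide 1 (adjusted p = 0.000219) and 0.31 ± 0.11 with guide 2 (adjusted p = 0.0350). The guide 2 call was narrow. It was lost with DESeq2 (0.31, adjusted p = 0.0783) and in a fit on the groups compared alone (0.32, adjusted p = 0.0645). Without sgCtrl replicate 2 the log2 fold change was 0.15 (adjusted p = 0.309), and without sgRNA-PURPL#2 replicates 1, 2 and 3 the adjusted p was 0.0815, 0.0510 and 0.107.

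H1-2 (chr6:26055740-26056470, minus strand), the only H1 gene with enough counts, was at 59.6, 51.5 and 55.0 CPM in sgCtrl, 65.7, 60.2 and 73.5 with guide 1 and 62.0, 62.4 and 59.4 with guide 2. The guide 1 libraries lay above sgCtrl, the closest pair being 60.2 and 59.6, and the guide 2 libraries overlapped them. This was a log2 fold change of 0.26 ± 0.07 with guide 1 (adjusted p = 0.00904) and 0.15 ± 0.08 with guide 2 (adjusted p = 0.160). The guide 1 call was lost without sgCtrl replicate 2 (0.21, adjusted p = 0.0807) and without sgRNA-PURPL#1 replicate 3 (0.18, adjusted p = 0.115).

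The other 10 tested members did not pass with either guide. H2BC12, an H2B gene, was at 46.5 to 49.3 CPM in sgCtrl, 49.4 to 57.3 with guide 1 and 44.6 to 47.0 with guide 2 (log2 fold change 0.18 ± 0.07 and -0.06 ± 0.07). H2BC5, an H2B gene, differed by 0.28 ± 0.11 (adjusted p = 0.0551) and 0.08 ± 0.11 on the log2 scale, with overlapping groups. Of the H3 genes, H3C6 differed by 0.26 ± 0.20 and -0.20 ± 0.21, and H3C10 by 0.37 ± 0.22 and -0.02 ± 0.23. The second H4 gene, H4C14, differed by -0.05 ± 0.34 and -0.17 ± 0.35. The H2A genes H2AC8 and H2AC11 differed by 0.38 ± 0.26 and 0.77 ± 0.45 with guide 1 and by 0.05 ± 0.27 and 0.11 ± 0.50 with guide 2. The H2B genes H2BC8, H2BC11 and H2BC15 differed by 0.40 ± 0.35, 0.34 ± 0.26 and 0.24 ± 0.19 with guide 1. With guide 2 the same H2B genes differed by 0.32 ± 0.36, 0.23 ± 0.26 and -0.17 ± 0.20. Of these low genes, H2AC11 had 6 to 25 counts a library, and a difference of the size seen in H2AC6 was not detectable there at this depth.

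**Figure D2:**
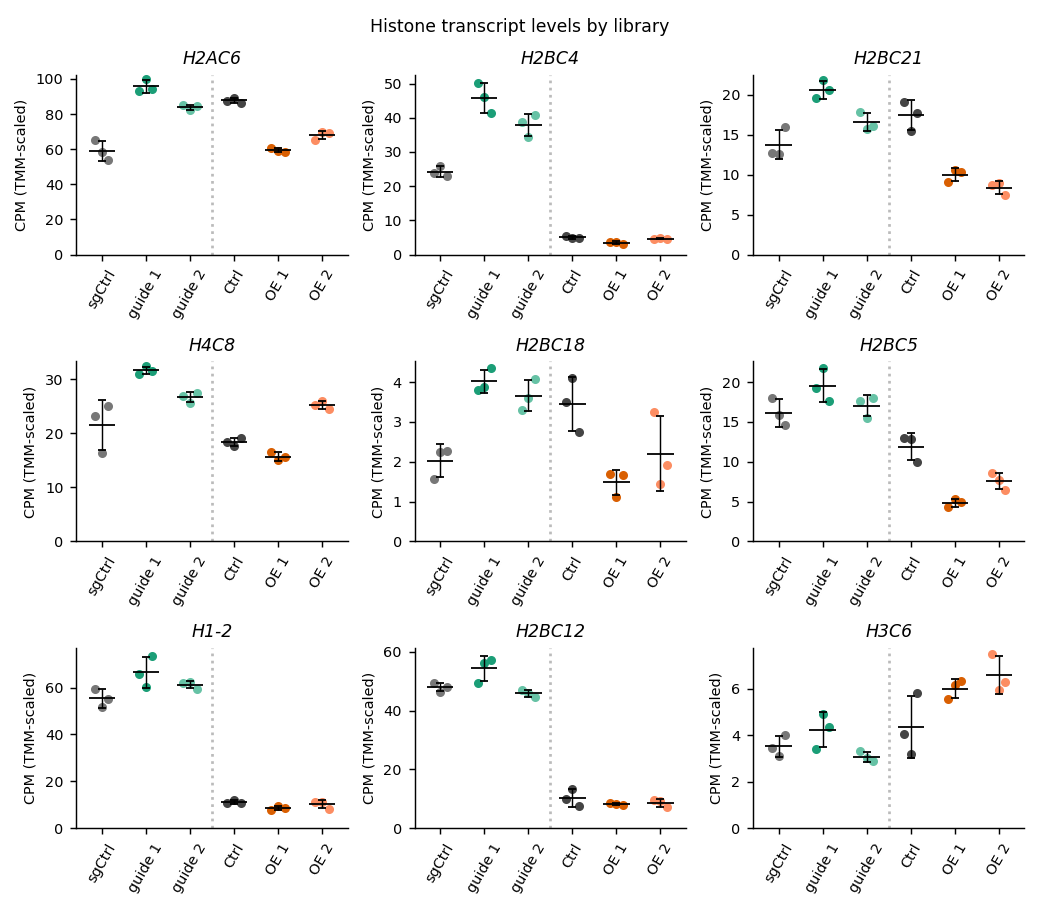
Level of 9 histone genes in each library, in TMM-scaled CPM from 0 on a linear axis, with 1 point per library and the mean ± SD of 3 libraries in black; the dotted line separates the knockdown table from the overexpression table, which were scaled separately. For H2AC6 the guide libraries (82.2 to 100.2 CPM) lie above sgCtrl (53.9 to 65.1) and both overexpression groups (58.4 to 69.7) lie below Ctrl (86.4 to 89.4); H4C8 is the gene for which OE 1 and OE 2 lie on opposite sides of Ctrl.

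The 2 guides were also compared with each other. No member was higher and 2 were lower with guide 2 than with guide 1, beside 5.51% and 3.74% of all genes. They were H2BC4 (-0.28 ± 0.08, adjusted p = 0.0307) and H2BC12 (-0.24 ± 0.07, adjusted p = 0.0285), neither of which overlapped between the guides. The median of the 16 members was -0.24 on the log2 scale. Both calls were lost when some single libraries were left out, while the values stayed between -0.34 and -0.20 for H2BC4 and between -0.30 and -0.20 for H2BC12. Without sgRNA-PURPL#1 replicate 1 H2BC4 differed by -0.20 (adjusted p = 0.235), and without sgRNA-PURPL#1 replicate 2 or sgRNA-PURPL#2 replicates 1 and 2 its adjusted p was 0.112, 0.0803 and 0.216. For H2BC12 the adjusted p was 0.159 and 0.168 without sgRNA-PURPL#1 replicates 2 and 3, and 0.0664, 0.0838 and 0.118 without sgRNA-PURPL#2 replicates 1, 2 and 3. PURPL itself was at 15.7 ± 1.94 CPM (SD, n = 3) with guide 1 and 19.5 ± 1.83 with guide 2.

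The second question was whether raising PURPL changed these genes. In OE 1, 11 of the 19 tested members fell and H3C6 alone rose. Among the 11, H2AC8 passed the low-count filter through Ctrl and OE 2 libraries alone. In OE 2, 6 fell and 3 were called higher (H3C6, H4C8 and H2BC9, the last kept by the filter through OE 2 alone). The members that fell in both were H2AC6, H2BC5, H2BC6, H2BC11, H2BC18 and H2BC21, and those that fell in OE 1 without passing in OE 2 or with the opposite sign there were H1-2, H2AC8, H2BC4, H4C14 and H4C8. Over all 15267 genes tested, 20.1% were called lower and 19.5% higher in OE 1, and 19.6% lower and 18.9% higher in OE 2. The median log2 fold change of the 19 members was -0.38 in OE 1 and -0.28 in OE 2. Both groups share the 3 Ctrl libraries.

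H2AC6 was at 87.4, 89.4 and 86.4 CPM in Ctrl, 60.8, 59 and 58.4 in OE 1 and 65.4, 69.7 and 69.4 in OE 2. The 3 groups were wholly apart, with OE 1 lowest. Its log2 fold change was -0.56 ± 0.05 in OE 1 (adjusted p = 6.71e-10) and -0.36 ± 0.05 in OE 2 (adjusted p = 2.43e-06). H2BC4, its divergent neighbour, was at 5.38, 4.69 and 4.96 CPM in Ctrl, 3.79, 3.55 and 3.05 in OE 1 and 4.42, 4.81 and 4.55 in OE 2. OE 1 lay below Ctrl, and OE 2 overlapped it. The log2 change was -0.53 ± 0.15 in OE 1 (adjusted p = 0.00517) and -0.12 ± 0.15 in OE 2 (adjusted p = 0.546).

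The H2B genes gave most of the other calls. H2BC5 (chr6:26158122-26171349, plus strand) was at 12.9, 12.9 and 9.91 CPM in Ctrl, 4.29, 5.35 and 4.91 in OE 1 and 8.53, 7.73 and 6.47 in OE 2. No group overlapped another. On the log2 scale it differed by -1.31 ± 0.13 in OE 1 (adjusted p = 1.71e-09) and -0.67 ± 0.13 in OE 2 (adjusted p = 9.08e-05). H2BC21 was at 19.1, 15.4 and 17.7 CPM in Ctrl, 9.01, 10.6 and 10.4 in OE 1 and 8.69, 8.98 and 7.42 in OE 2. Both overexpression groups lay below Ctrl. This was a log2 fold change of -0.80 ± 0.11 in OE 1 (adjusted p = 3.12e-07) and -1.06 ± 0.11 in OE 2 (adjusted p = 3.60e-09).

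H2BC18, H2BC11 and H2BC6 were lower from small counts. H2BC18 was at 3.51, 4.10 and 2.74 CPM in Ctrl, 1.68, 1.12 and 1.66 in OE 1 and 3.25, 1.43 and 1.93 in OE 2. OE 1 lay below Ctrl and OE 2 overlapped it. Its log2 fold change was -1.21 ± 0.25 in OE 1 (adjusted p = 0.000211) and -0.68 ± 0.24 in OE 2 (adjusted p = 0.0245). H2BC11 was at 2.07 to 2.70 CPM in Ctrl, 0.809 to 1.78 in OE 1 and 1.06 to 1.71 in OE 2, without overlap (-1.05 ± 0.27, adjusted p = 0.00211; -0.98 ± 0.27, adjusted p = 0.00466). H2BC6 was at 1.65 to 2.19 CPM in Ctrl, 0.495 to 1.07 in OE 1 and 0.860 to 1.11 in OE 2, also without overlap. Its log2 fold change was -1.24 ± 0.29 (adjusted p = 0.00107) and -0.95 ± 0.29 (adjusted p = 0.00983). The OE 2 call of H2BC6 was lost without Ctrl replicate 2 (-0.81, adjusted p = 0.0640). That of H2BC18 was lost without Ctrl replicate 1 (-0.67, adjusted p = 0.0627), Ctrl replicate 2 (-0.53, adjusted p = 0.128), PURPL#2-OE replicate 3 (-0.59, adjusted p = 0.0962) or unnumbered OE 2 library b (-0.45, adjusted p = 0.154; columns with no replicate number are lettered in column order), and without library a the value was -1.04.

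H4C8 was the only member called in opposite directions in the overexpression groups. It was at 18.4, 17.7 and 19.2 CPM in Ctrl, 16.5, 15 and 15.6 in OE 1 and 25.2, 26.0 and 24.4 in OE 2. The groups were wholly apart, OE 1 below Ctrl and OE 2 above it. The log2 change was -0.23 ± 0.08 in OE 1 (adjusted p = 0.0311) and 0.45 ± 0.08 in OE 2 (adjusted p = 4.85e-05). The OE 1 call was narrow. It was lost with upper-quartile scaling (-0.21, adjusted p = 0.0506), without Ctrl replicate 1 or 3 (adjusted p = 0.0732 and 0.0934) and without unnumbered OE 1 library b or c (lettered in column order; adjusted p = 0.115 and 0.0823).

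H3C6 (chr6:26224199-26227473, plus strand), an H3 gene, was at 4.05, 3.21 and 5.83 CPM in Ctrl, 5.54, 6.16 and 6.33 in OE 1 and 7.52, 5.97 and 6.31 in OE 2. OE 2 lay above Ctrl, and OE 1 overlapped the highest Ctrl library. On the log2 scale it differed by 0.48 ± 0.16 in OE 1 (adjusted p = 0.0195) and 0.61 ± 0.17 in OE 2 (adjusted p = 0.00369). The OE 1 call was lost without Ctrl replicate 1 or 2 (0.44 and 0.30, adjusted p = 0.0774 and 0.171) and without unnumbered OE 1 library b or c (adjusted p = 0.0535 and 0.0678), and without Ctrl replicate 3 the value was 0.72. H3C10, the other tested H3 gene, was at 1.13 to 1.19 CPM in Ctrl, 1.04 to 1.17 in OE 1 and 1.12 to 1.31 in OE 2, with log2 differences of -0.06 ± 0.27 and 0.06 ± 0.28.

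H1-2 was at 10.8, 12 and 10.8 CPM in Ctrl, 7.76, 9.35 and 8.74 in OE 1 and 11.1, 11.2 and 8.36 in OE 2. OE 1 lay below Ctrl and OE 2 overlapped it. This was a log2 fold change of -0.38 ± 0.12 in OE 1 (adjusted p = 0.0102) and -0.13 ± 0.12 in OE 2 (adjusted p = 0.393). The OE 1 call was lost without Ctrl replicate 2 (-0.33, adjusted p = 0.0538) or unnumbered OE 1 library a (-0.31, adjusted p = 0.0710). H2BC12 was at 9.90, 13.5 and 7.54 CPM in Ctrl, 7.83 to 8.55 in OE 1 and 7.09 to 9.54 in OE 2. Its Ctrl libraries overlapped both groups. The log2 differences of -0.34 ± 0.16 and -0.28 ± 0.16 did not pass, while without Ctrl replicate 3 they were -0.50 (adjusted p = 0.00439) and -0.45 (adjusted p = 0.0111).

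H2AC8 and H4C14 fell in OE 1 (-1.73 ± 0.54, adjusted p = 0.0110, and -1.18 ± 0.30, adjusted p = 0.00234). H2AC8, an H2A gene, had 12, 12 and 8 counts in Ctrl, 4, 3 and 3 in OE 1 and 8, 8 and 11 in OE 2. H4C14, whose counts are uncertain because of its near-identical copy, was at 1.24 to 1.91 CPM in Ctrl and 0.540 to 0.910 in OE 1. Neither overlapped between Ctrl and OE 1. In OE 2 they differed by -0.12 ± 0.45 and -0.61 ± 0.29, which did not pass. H2AC8 passed the low-count filter through Ctrl and OE 2 libraries and none of OE 1, so its lower value in OE 1 is a description. H2BC9, an H2B gene, had 2, 3 and 2 counts in Ctrl, 5, 4 and 1 in OE 1 and 9, 14 and 11 in OE 2. Its OE 2 libraries lay above the other groups, with a log2 difference of 2.34 ± 0.62 from Ctrl. Only through those libraries did it pass the low-count filter, so this value is a description, and a fold from so few counts is imprecise. The remaining tested members did not pass: H2AC11 differed by 0.21 ± 0.49 and -0.55 ± 0.55, H2AC15 by 0.34 ± 0.44 and 0.08 ± 0.47, H2BC8 by -0.10 ± 0.44 and 0.09 ± 0.44, and H2BC15 by 0.21 ± 0.20 and -0.40 ± 0.21.

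**Figure D3:**
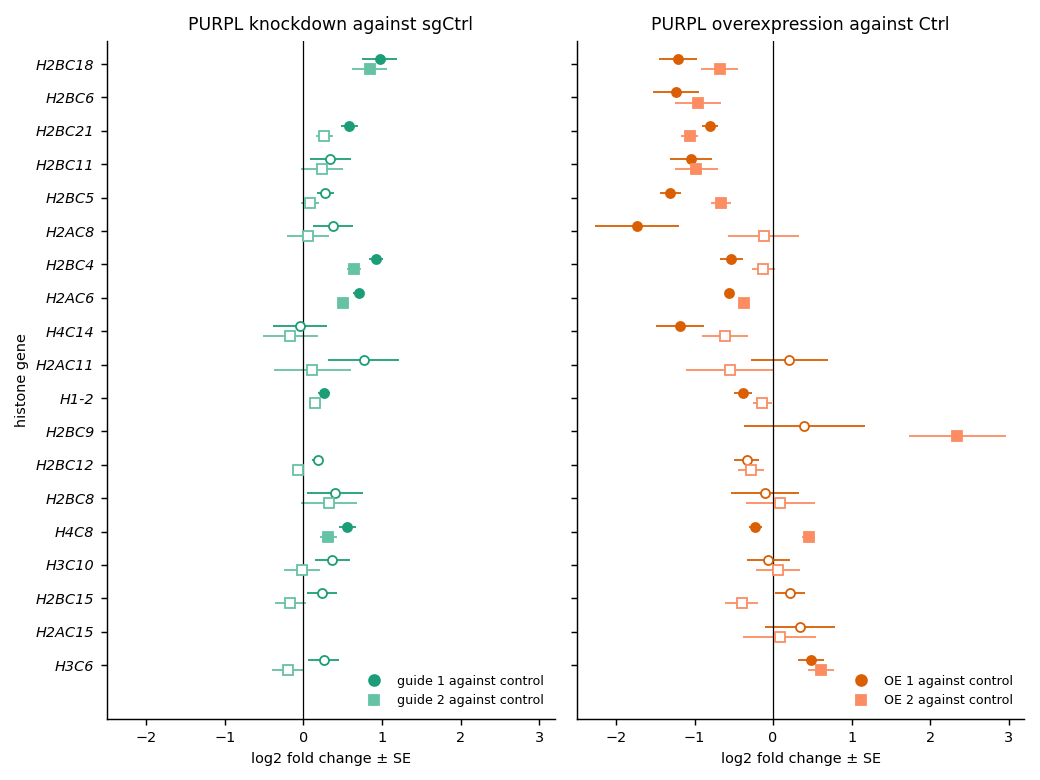
Log2 fold change ± SE of the 19 tested histone genes against the control of their own table, left for the guides (circles guide 1, squares guide 2) and right for the overexpression lines (circles OE 1, squares OE 2); filled symbols passed an adjusted p of 0.05 and open ones did not. On the left the 10 filled symbols lie to the right of 0 (0.26 to 0.97), and on the right 17 of 21 filled symbols lie to the left of it. The filled symbol of H2BC9 is of a gene kept by the low-count filter through OE 2 alone. That of H2AC8 is of a gene kept through Ctrl and OE 2.

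The overexpression lines were compared with each other as well. Against OE 1, 4 members were higher in OE 2 and 1 was lower, beside 6.18% and 6.19% of all genes. H4C8 differed by 0.68 ± 0.08 (adjusted p = 5.09e-07), H2BC5 by 0.64 ± 0.14 (adjusted p = 0.00179) and H2AC6 by 0.20 ± 0.05 (adjusted p = 0.0145). The remaining one, H2BC9, differed by 1.95 ± 0.58, which is a description because the gene was kept through OE 2; without a low-count filter its adjusted p was 0.0755 (1.94). H2BC15 was lower in OE 2, by -0.62 ± 0.21 (adjusted p = 0.0486). None of these 5 overlapped between the lines. The median over the 19 members was 0.20. H2BC15 lost its call without any 1 of the 6 libraries (adjusted p from 0.0707 to 0.139), H2BC9 without 4 of them (up to 0.144) and H2AC6 without 2 (up to 0.0710). The lines also differed in PURPL, which was at 173 ± 6.40 CPM (SD, n = 3) in OE 1 and 123 ± 7.53 in OE 2.

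The effect of the guides and that of overexpression were then set against each other in a fit over all 18 libraries, in which each arm kept its own control. The difference tested was the mean log2 change of both guides minus the mean log2 change of both overexpression lines. Of 19 members, 10 had a higher value in the guides and none a lower one, beside 18% higher and 15.6% lower over 15166 genes. The median difference was 0.62 over the members, and 6 of the 7 genes with described polyadenylated transcripts were called. Those 7 were chosen with earlier results of these data known and hold most of the counts, so that number only describes the list. The largest were H2BC18 (1.86 ± 0.29, adjusted p = 1.78e-06) and H2BC6 (1.67 ± 0.49, adjusted p = 0.00616). H2BC6 had 76 counts over all knockdown libraries, too few to be tested in that table alone. H2BC21 differed by 1.36 ± 0.13 (adjusted p = 2.39e-11), H2BC11 by 1.30 ± 0.33 (adjusted p = 0.00169), H2BC5 by 1.18 ± 0.15 (adjusted p = 1.51e-08), H2BC4 by 1.11 ± 0.14 (adjusted p = 1.08e-08) and H2AC6 by 1.07 ± 0.08 (adjusted p = 1.11e-15). H2AC8 (1.14 ± 0.44, adjusted p = 0.0428), H1-2 (0.47 ± 0.11, adjusted p = 0.000965) and H4C8 (0.33 ± 0.12, adjusted p = 0.0258) completed the 10. H3C6 had a difference of -0.51 ± 0.23, which did not pass (adjusted p = 0.0887). The PURPL change differed by -3.38 ± 0.10 in the same fit.

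The calls for H2AC8 and H4C8 in that fit were narrow. That of H2AC8 was kept in 4 of 18 fits that each left out 1 library, with values of 1.00 to 1.26 and an adjusted p up to 0.103. That of H4C8 was lost without sgCtrl replicate 2 (0.16, adjusted p = 0.292) and without Ctrl replicates 1 and 3 (adjusted p = 0.0529 and 0.0602). Without Ctrl replicate 3, H3C6 was called lower (-0.75, adjusted p = 0.00929) and H2BC12 higher (0.54, adjusted p = 0.000707). The tables also differed in control levels: H1-2 was at 55.4 ± 4.05 CPM (SD, n = 3) in sgCtrl and 11.2 ± 0.71 in Ctrl, H2BC4 at 24.3 ± 1.49 and 5.01 ± 0.35, and H2AC6 at 59 ± 5.65 and 87.8 ± 1.51. The tables were scaled separately, and the table and the line behind each control cannot be told apart, so these levels were not tested.

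There were 13 divergent pairs less than 1000 bp apart, 11 of them an H2A with an H2B gene, and 4 pairs had both genes tested. H2BC4 and H2AC6 were called in the same direction in guide 1, guide 2 and OE 1. In the pair H2BC11 and H2AC11, H2BC11 fell in both overexpression lines while H2AC11, with 1 to 16 counts a library there, did not pass. In the pair H2BC8 and H2AC8, H2AC8 was lower in OE 1 (-1.73, a description because of the low-count filter) and H2BC8 did not pass (-0.10). In the pair H2AC15 and H2BC15 neither gene was called against a control. In 3 further pairs 1 gene was tested: H2BC21 had 4397 counts and its partner H2AC20 had 33, H2BC12 had 7388 and H2AC12 had 9, and H2BC9 had 93 and H3C7 had 2.

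Summed over all 66 genes, the histone level was 264 ± 12.6 CPM (SD, n = 3) in sgCtrl, 367 ± 5.70 with guide 1 and 317 ± 6.75 with guide 2. It was 183 ± 5.24 CPM in Ctrl, 128 ± 0.254 in OE 1 and 152 ± 4.95 in OE 2. In bulk RNA, fewer cells with a transcript and less of it per cell cannot be told apart. By class, the H2B sum was 113 ± 1.90 CPM in sgCtrl, 156 ± 4.74 with guide 1 and 131 ± 5.52 with guide 2, and 55.6 ± 5.30 in Ctrl, 33.6 ± 0.312 in OE 1 and 36.7 ± 4.22 in OE 2. The H2A sum, nearly all of it H2AC6, was 63.4 ± 5.64, 101 ± 4.31 and 88.4 ± 0.581 CPM in the knockdown groups and 89.4 ± 1.66, 60.8 ± 1.05 and 69.7 ± 2.21 in the overexpression groups. The H3 sum was 7.44 ± 0.460, 9.0 ± 0.428 and 6.69 ± 0.149 CPM in the knockdown groups and 6.22 ± 1.36, 7.76 ± 0.705 and 8.26 ± 0.585 in the overexpression groups. The H4 sum was 20.9 ± 0.762 CPM in Ctrl, 17.0 ± 0.765 in OE 1 and 27.1 ± 0.933 in OE 2, which tracks H4C8. The H1 sum, mostly H1-2, was 55.7 ± 4.10, 67.0 ± 6.47 and 62.0 ± 1.29 CPM in sgCtrl, guide 1 and guide 2, and 11.4 ± 0.640, 8.76 ± 0.808 and 10.6 ± 1.69 in Ctrl, OE 1 and OE 2. As sums are led by a few genes they were not tested.

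**Figure D4:**
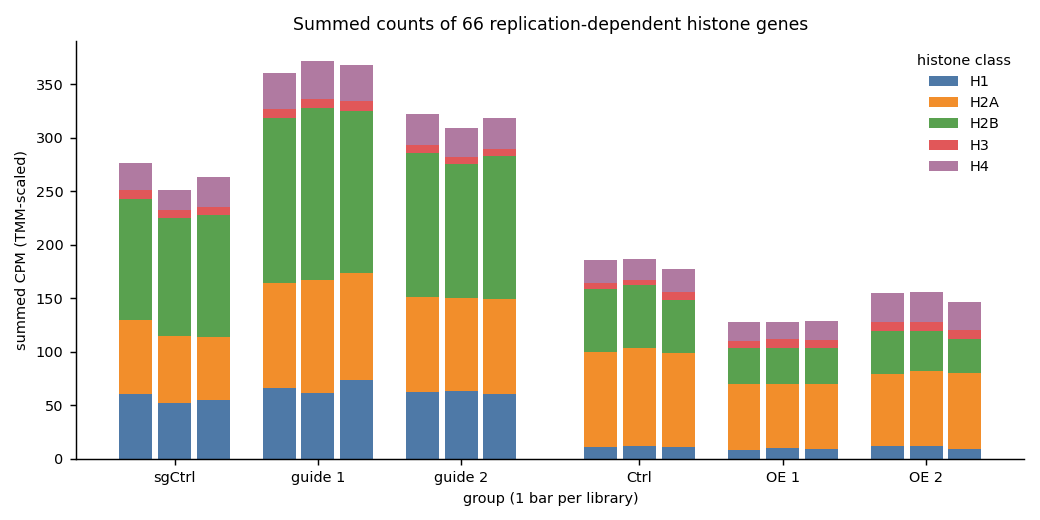
Summed TMM-scaled CPM of the 66 histone genes in each library (1 bar per library), stacked by histone class from 0. The guide 1 bars are the tallest of the knockdown groups (mean 367 CPM against 264 in sgCtrl) and the OE 1 bars the shortest of the overexpression groups (mean 128 against 183 in Ctrl).

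Genes of DNA replication fell in all 4 comparisons with a control, while the histone calls of the guides were all higher. Of 36 tested genes of an S phase and DNA replication list (38 listed), 31 fell with guide 1, 36 with guide 2, 34 in OE 1 and 32 in OE 2, and none rose in any of the 4; of all genes, 12.9%, 12.4%, 20.1% and 19.6% fell in that order. The median log2 fold change of the 36 was -0.57 with guide 1, -0.60 with guide 2, -0.95 in OE 1 and -0.86 in OE 2. MCM10, a factor of replication start, changed by -1.28 ± 0.16 with guide 1, -1.40 ± 0.17 with guide 2, -1.6 ± 0.15 in OE 1 and -1.77 ± 0.16 in OE 2. POLE2, a subunit of DNA polymerase epsilon, changed by -0.76 and -1.43 with the guides and -2.12 and -1.71 in OE 1 and OE 2. RRM2, which makes the building blocks of DNA, and CCNE2, a cyclin of S phase entry, fell by 1.17 and 0.68 on the log2 scale with guide 1 and by 1.13 and 1.53 with guide 2. In the overexpression lines the licensing factor CDT1 changed by -2.10 and -2.32 and CDC45, a part of the replicative helicase, by -1.82 and -1.62. In the fit over both tables, 11 of the 36 had a higher value in the guides and 1 a lower one (median 0.23), beside 18% and 15.6% of all genes. The number of cells in S phase was not measured, and the part of cell cycle position in the histone changes was not tested.

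Of 24 genes that make, process and degrade histone mRNA, 2 rose and 2 fell with guide 1, 4 fell with guide 2, 8 fell in OE 1, and 1 rose and 5 fell in OE 2, with medians of -0.03, -0.04, -0.15 and -0.07. Of all genes, 11.6% rose and 12.9% fell with guide 1, 11.9% and 12.4% with guide 2, 19.5% and 20.1% in OE 1 and 18.9% and 19.6% in OE 2. SLBP, which binds the stem-loop, fell with both guides (-0.23, adjusted p = 0.0285; -0.35, adjusted p = 0.00115) and in OE 2 (-0.18, adjusted p = 0.0263), and its value of -0.12 in OE 1 did not pass. NPAT, the activator of histone transcription, LSM11, part of the U7 particle that guides the cut after the stem-loop, and ZNF473, which works with that particle, did not pass in any of the 4. XRN1, the main exonuclease of cytoplasmic decay, fell in OE 1 and OE 2 (-0.58 and -0.69), as did CASP8AP2, a partner of LSM11 in histone mRNA processing (-0.48 and -0.51), and CPSF3, the nuclease that cuts histone and other pre-mRNA (-0.17 and -0.15).

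Of 18 histone chaperones, none rose and 4 fell with guide 1, 1 rose and 3 fell with guide 2, 2 rose and 11 fell in OE 1, and 1 rose and 9 fell in OE 2. The shares of all genes that fell were 12.9%, 12.4%, 20.1% and 19.6% in that order, and 11.6%, 11.9%, 19.5% and 18.9% rose. CHAF1A and CHAF1B, subunits of the factor that deposits H3 and H4 on new DNA, fell in all 4 (CHAF1A -0.30, -0.28, -1.09 and -0.91; CHAF1B -0.34, -0.50, -0.89 and -0.80 with guide 1, guide 2, OE 1 and OE 2). HJURP, the chaperone of the centromeric histone CENPA, changed by -0.64, -0.58, -1.02 and -1.04 in the same order. ASF1B, an H3 and H4 chaperone, fell in OE 1 and OE 2 (-2.76 and -1.51).

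Replacement histones, whose genes are transcribed outside S phase too and whose mRNAs are mostly polyadenylated, showed no common direction. Of 11 tested (12 listed), 1 rose and 4 fell with guide 1, 2 rose and 4 fell with guide 2, 3 rose and 5 fell in OE 1, and 3 rose and 4 fell in OE 2. Beside them, 11.6%, 11.9%, 19.5% and 18.9% of all genes rose and 12.9%, 12.4%, 20.1% and 19.6% fell. CENPA, H2AX (the variant of DNA damage signalling) and H2AZ1 fell in all 4. CENPA changed by -1.07, -0.48, -0.89 and -0.84, H2AX by -0.58, -0.49, -0.73 and -0.43, and H2AZ1 by -0.33, -0.28, -0.39 and -0.45 with guide 1, guide 2, OE 1 and OE 2. H2AZ2 fell with both guides (-0.44 and -0.23) and rose in OE 1 and OE 2 (0.38 and 0.32), and the fit over both tables called that difference (-0.68, adjusted p = 5.04e-10). MACROH2A2 rose with both guides (0.52 and 0.29) and in OE 2 (0.32). H3-3A rose in OE 1 and OE 2 (0.25 and 0.34), while H3-3B, the other H3.3 gene, did not pass in any of the 4.

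**Figure D5:**
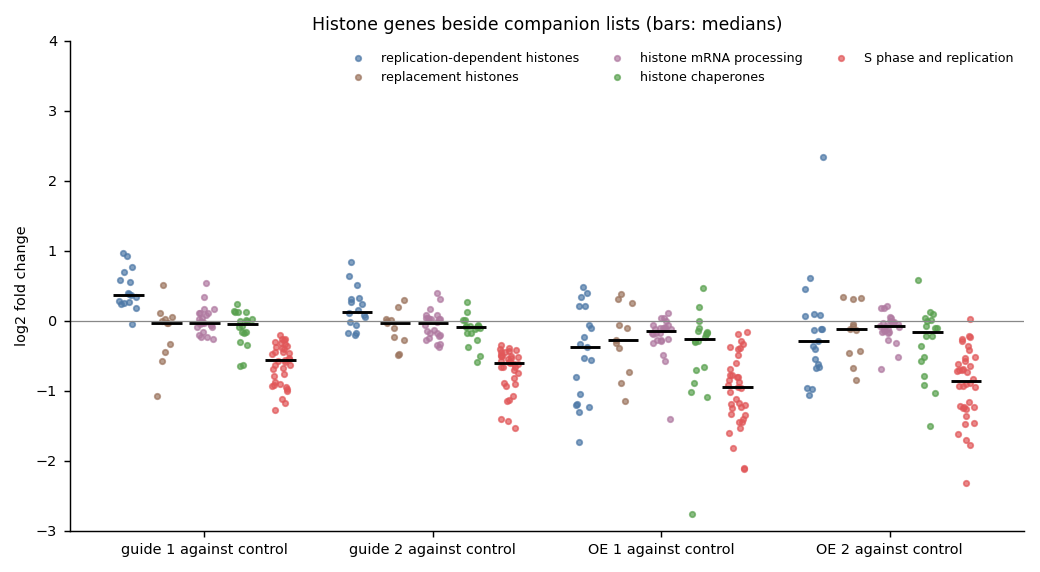
Log2 fold change (vertical) of each tested gene of 5 lists in the 4 comparisons with a control, 1 point per gene, with black bars at the medians; horizontal scatter has no meaning. The replication-dependent histones have medians of 0.37, 0.13, -0.38 and -0.28 from left to right, and the S phase and replication genes have medians below 0 in all 4 (-0.57, -0.60, -0.95 and -0.86).

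Fibroblast markers moved with the overexpression lines. Of 10, 8 rose in OE 1 and 8 in OE 2 and none fell, beside 19.5% and 18.9% of all genes that rose, and the summed level was 24598 to 25026 CPM in Ctrl, 29773 to 30935 in OE 1 and 31601 to 32889 in OE 2. With guide 1, 3 rose and 1 fell, and with guide 2, 4 rose and 2 fell, beside 11.6% and 11.9% of all genes that rose and 12.9% and 12.4% that fell, while the sum was 16512 to 17587 CPM in sgCtrl, 17162 to 17254 with guide 1 and 16768 to 17332 with guide 2. The part of the fibroblast markers in the fall of the histones was not tested.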

How the data were processed

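Per the labels' protocols, TRIzol extraction was followed by selection of RNA with a poly(A) tail, which was fragmented by heat and reverse-transcribed from random hexamers, and libraries were sequenced in paired-end reads. The submitters' processing notes name FastQC 0.11.9, cutadapt 3.3, HISAT2 2.1.0, SAMtools 1.11, featureCounts 2.0.1, DESeq2 1.34.0 and the builds hg38 and GRCh38.p13; how strand and reads with several hits were treated is not given in those notes. The authors deposited raw read counts per gene in 2 tables of 9 libraries, with the span of each gene. No library column was left unused (0), and 5 overexpression columns carry no replicate number and were placed by group.

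The counts were analysed in R 4.3.3 with edgeR 4.0.16: genes were kept by filterByExpr (minimum count 10, minimum total 15), libraries were scaled by TMM, each table was fitted over all its 9 libraries, and quasi-likelihood p-values were adjusted by Benjamini-Hochberg over all genes tested, with a threshold of 0.05. The 18-library fit tested the guides' change minus the overexpression change. The scripts were tested on simulated data. No library pair of a group agreed within counting noise (chi-square per gene at least 2.47). PCR copies count as separate reads. Alternatives were other scalings, filters, DESeq2 1.42.0 (Wald test), fits on the groups compared, a replicate block and leaving out each library. Every tested member is named, as are the 10 untested members with the most counts, and from each companion list up to 4 genes called in both groups of a table in 1 direction with the largest mean change, replacement histones (1 is not reported here), and SLBP, NPAT, LSM11 and ZNF473. The members and the gene lists were chosen with earlier results of these data known. Stem-loops and poly(A) signals were searched in GENCODE release 29 transcripts, an older release than the tables' annotation, and promoter letters in RefSeq windows on GRCh38.p14.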

Additional observations from a re-analysis of the deposited data

Results flagged for a closer look

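Some histone genes differed between the 2 lines of a table when the lines were tested against each other. Guide 2 was lower than guide 1 for H2BC4 (log2 difference -0.28, adjusted p = 0.0307) and H2BC12 (-0.24, adjusted p = 0.0285). OE 2 was higher than OE 1 for H2AC6 (0.20, adjusted p = 0.0145), H2BC5 (0.64, adjusted p = 0.00179) and H4C8 (0.68, adjusted p = 5.09e-07), and lower for H2BC15 (-0.62, adjusted p = 0.0486). H2BC9 differed by 1.95 between OE 2 and OE 1, a description only, since it passed the low-count filter through OE 2 alone. Without that filter the value was 1.94 and did not pass (adjusted p = 0.0755). The calls of H2BC4, H2BC12, H2AC6 and H2BC15 were each lost when some single libraries were left out. With DESeq2 (Wald test) those of H2BC4, H2BC12 and H2BC15 were lost too (adjusted p = 0.0951, 0.0655 and 0.131).

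Others differed between the change with the guides and the change with overexpression, in the fit over 18 libraries. The differences were 1.86 for H2BC18, 1.67 for H2BC6, 1.36 for H2BC21, 1.30 for H2BC11, 1.18 for H2BC5, 1.14 for H2AC8, 1.11 for H2BC4, 1.07 for H2AC6, 0.47 for H1-2 and 0.33 for H4C8, all higher in the guides. H2BC6 had too few counts in the knockdown libraries to be tested there alone. The calls of H2AC8 and H4C8 were narrow and were lost with DESeq2 (Wald test, adjusted p = 0.0868 and 0.0646). That of H2AC8 was also lost in edgeR without a low-count filter (adjusted p = 0.142).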

How the results depend on the processing

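Of 1805 values of single members under an alternative, 36 had another sign, none of them called in either fit; 75 calls were lost and 22 gained. No scaling moved the median of all genes by more than 0.05. On CPM of total counts the summed level was 127 for all members in PURPL#1-OE, 91.2 for H2A in Ctrl and 33.3 for H2B in PURPL#1-OE. Without a low-count filter, which lets in members with few counts, the members' medians were 0.27 (guide 1), 0.0771 (guide 2), -0.13 (guide 2 against guide 1), -0.28 (OE 1) and -0.0977 (OE 2); 4 members were lower with guide 2 than guide 1 and 0 lower in OE 2 than OE 1. With DESeq2 the OE 1 median was -0.54, 0 members were higher in OE 1, and 0 were lower in guide 2 against guide 1 and in OE 2 against OE 1; the cause was not tested. H2AC8 in OE 1 had an adjusted p of 0.0513 there. A minimum CPM of 1 left fewer members and an OE 1 median of -0.55. Fitting only the groups compared gave a guide 2 median of 0.15 and 5 members lower with guide 2 than guide 1.

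Leaving out 1 library at a time, the members' median ranged from 0.33 to 0.52 (guide 1), 0.0990 to 0.18 (guide 2), -0.28 to -0.21 (guide 2 against guide 1), -0.52 to -0.41 (OE 1), -0.41 to -0.21 (OE 2) and 0.18 to 0.32 (OE 2 against OE 1). The OE 1 median of -0.38 lies outside its range; the filter kept 19 or 20 members in those fits. Members called higher ranged from 0 to 1 in OE 1 and 2 to 5 in OE 2 against OE 1, and members called lower from 0 to 1 in guide 2 against guide 1, 0 to 0 in OE 2 against OE 1 and 0 to 1 for the guides against overexpression. H2BC5 with guide 1 was called without sgCtrl replicate 1 (0.36, adjusted p = 0.0166) or sgRNA-PURPL#1 replicate 3 (0.34, adjusted p = 0.0391), H2BC21 with guide 2 without sgCtrl replicate 3 (0.39, adjusted p = 0.0123), H1-2 with guide 2 without sgCtrl replicate 1 (0.20, adjusted p = 0.0430) and H2BC12 with guide 1 without sgRNA-PURPL#1 replicate 1 (0.24, adjusted p = 0.0304). Replicate numbers did not pair the knockdown libraries: none of 9 same-numbered pairs had deviations correlated above 0.1 (-0.0888 to 0.0386). With the replicate number as a block, 6 members rose with guide 1 and 4 with guide 2 (medians 0.37 and 0.14). No paired analysis was possible for overexpression because 5 columns carry no number.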
